A study of Mus musculus with 50 samples.

Results

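The respiratory chain genes described here are the 83 of 11879 rows of the TPM table whose symbols begin with Nduf, Uqcr, Cox4 to Cox8 or Atp5, or are Sdha, Sdhb, Sdhc or Sdhd. The rule reads the symbols only and no measured value. By their known roles, 77 were counted as subunits, namely 36 of complex I, 4 of complex II, 8 of complex III, 14 of complex IV and 15 of complex V. The other 6 were the complex I assembly factors Ndufaf1, Ndufaf2, Ndufaf3 and Ndufaf4 and the coupling factor-like genes Atp5s and Atp5sl. Ndufa4, named after complex I, was counted with complex IV, where its protein is now placed. A further 14 symbols of these families, among them those of the muscle isoforms Cox6a2, Cox7a1 and Cox8b, had no row under that name and were not analysed here. None of the rows carried a mitochondrially encoded gene, so only the nuclear share of the chain was measured.

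The cells were single induced hemogenic endothelial cells (iHECs, in the labels induced endothelia hematopoietic cells), endothelium-like cells with the capacity to form blood. They came from C57BL/6 mouse embryonic stem cells with a doxycycline-inducible Runx1 cassette at the Rosa26 locus (iRunx1-ESCs), were grown with doxycycline, and were sorted for CD31, c-kit and high CD201, with low CD41 and without CD45. The labels give 50 cells of 1 group, with no second group and no named culture, and whether the line was a single clone is not stated. The cells therefore made up 1 sample, no test between conditions was possible, and every relation below describes these 50 cells. Cells are named here by the 2 numbers of their titles. The first of these runs from 1 to 4, with 11, 14, 13 and 12 cells, and its meaning is not given.

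The nuclear genes of the chain encode most of the proteins of the inner mitochondrial membrane that carry electrons from NADH and succinate to oxygen and couple this to ATP synthesis. Complex I oxidises NADH, complex II oxidises succinate, complex III passes electrons to cytochrome c, complex IV reduces oxygen, and complex V is the ATP synthase. Endothelial cells are known for a strong reliance on glycolysis, in which Ldha converts pyruvate to lactate, and blood stem cells are known for low mitochondrial respiration. The transcripts say nothing directly about protein amounts or about oxygen use.

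Endothelial identity was present at the transcript level in these cells. The endothelial genes Pecam1, Cdh5, Esam and Fli1 and the sort marker gene Procr, which encodes CD201, were above TPM 1 in all 50 cells. Ptprc, which encodes CD45, was listed at 0 in every cell. Kit was above TPM 1 in 47 cells and Runx1 in 43. A median of 6223.5 genes per cell lay above TPM 1. Cell 4-6 stood apart, with 2400 such genes where the next lowest cell had 4326, and the main results that rest on it are given with and without it. Read depth is unknown because TPM, a share of the transcripts of a cell that is scaled for transcript length, does not keep it.

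A stretch of DNA upstream of each of 4 subunit genes is shown because these are genes on which the results below turn. The stretches are from RefSeq on GRCm38.p6, run 5′ to 3′ towards the start of the gene, and were cut where they met an exon. Capitals mark matches to GCATGCGC, the core of the nuclear respiratory factor 1 (NRF1) motif, or to CCGGAAG, an ETS-factor core, on either strand. The first pair belongs to the lowest and the highest gene for subunit c of the ATP synthase, and the second pair to Cox6a1, one of the most abundant subunits of complex IV, and Atp5l, which had the highest rho with the summed TPM of the other subunits (rho being the Spearman correlation over cells).
Atp5g1 (chr11:96075671-96075881, minus strand): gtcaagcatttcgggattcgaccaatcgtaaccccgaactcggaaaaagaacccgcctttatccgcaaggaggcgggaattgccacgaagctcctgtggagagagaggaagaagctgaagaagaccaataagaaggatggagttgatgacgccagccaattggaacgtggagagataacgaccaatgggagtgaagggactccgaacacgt
Atp5g3 (chr2:73911327-73911576, minus strand): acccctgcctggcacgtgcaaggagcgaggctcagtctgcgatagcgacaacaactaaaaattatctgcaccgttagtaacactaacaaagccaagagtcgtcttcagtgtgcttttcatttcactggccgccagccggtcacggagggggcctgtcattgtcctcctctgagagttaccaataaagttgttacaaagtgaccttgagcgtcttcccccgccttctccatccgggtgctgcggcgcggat
Cox6a1 (chr5:115348982-115349208, minus strand): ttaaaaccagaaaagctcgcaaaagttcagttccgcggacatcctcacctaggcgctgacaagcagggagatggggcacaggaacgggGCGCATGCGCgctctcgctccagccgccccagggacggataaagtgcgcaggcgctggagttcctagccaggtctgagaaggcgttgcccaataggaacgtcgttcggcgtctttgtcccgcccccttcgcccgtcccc
Atp5l (chr9:44920743-44920992, minus strand): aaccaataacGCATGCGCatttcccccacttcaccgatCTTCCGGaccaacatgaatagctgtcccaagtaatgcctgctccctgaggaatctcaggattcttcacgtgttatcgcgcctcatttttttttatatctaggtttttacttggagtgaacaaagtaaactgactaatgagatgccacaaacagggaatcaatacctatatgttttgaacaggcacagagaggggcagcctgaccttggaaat

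The stretches of Atp5g1 and Atp5g3 hold neither motif. That of Cox6a1 holds the NRF1 letters on both strands, since GCGCATGCGC reads the same on each. Cox6a1 is also among the genes counted below with ETS letters, but those letters lie outside the printed stretch. The stretch of Atp5l holds the NRF1 letters 240 bases and the ETS letters 212 bases before the start. Promoters of 250 bases were found for 71 of the 83 genes. The NRF1 letters were in 9 of the 71 (12.7%), against 2.56% of the promoters of 27025 genes. The ETS letters were in 13 (18.3%) against 7.83%, and AAGATGGCG, a YY1 core, was in 2 (2.82%) against 0.710%. The 9 genes with NRF1 letters were Atp5g2, Atp5k, Atp5l, Cox6a1, Ndufa6, Ndufa8, Ndufa11, Ndufaf4 and Sdhb. A match of letters is not evidence of binding, and binding was not measured.

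Transcripts of the chain were abundant and were found in nearly every cell. A total of 63 of the 83 genes were above TPM 1 in all 50 cells, where 7.15% of all rows were. Another 8 were above that level in 49 cells and 3 in 48, so 74 passed in 45 cells or more. A median TPM of 100 or more was reached by 72 of the 83 (86.7%) and by 13.2% of all rows. The median of the genes' medians was 379 TPM against 2.1 TPM over all rows. A cell held between 72 and 83 of the genes above TPM 1, with a median of 80.

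Together the 77 subunits carried a median of 4.36% of the TPM in the table, which is 41699 TPM. The lowest sum was 26069 TPM in cell 2-7 and the highest 102824 TPM in cell 4-6, while the next highest was 65309 TPM. All other cells therefore lay within a 2.51-fold range. In cell 4-6 the single gene Uqcrq, a small subunit of complex III, reached 14669 TPM, which is 41.2-fold its median over the cells and 14.3% of the subunit sum of that cell. Cox8a, Ndufc1, Atp5d, Ndufb8, Atp5o, Ndufa8 and Ndufs3 were also between 8.80-fold and 21.2-fold their medians there. In all, 15 of the 83 genes had their highest value in cell 4-6. In the same cell Ndufb6 and Ndufs6 were listed at 0, and Ndufs7, Ndufv1, Ndufv2, Ndufa10, Uqcrc1, Cox5a and Cox4i1 were at their lowest value over the 50 cells.

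**Figure D1:**
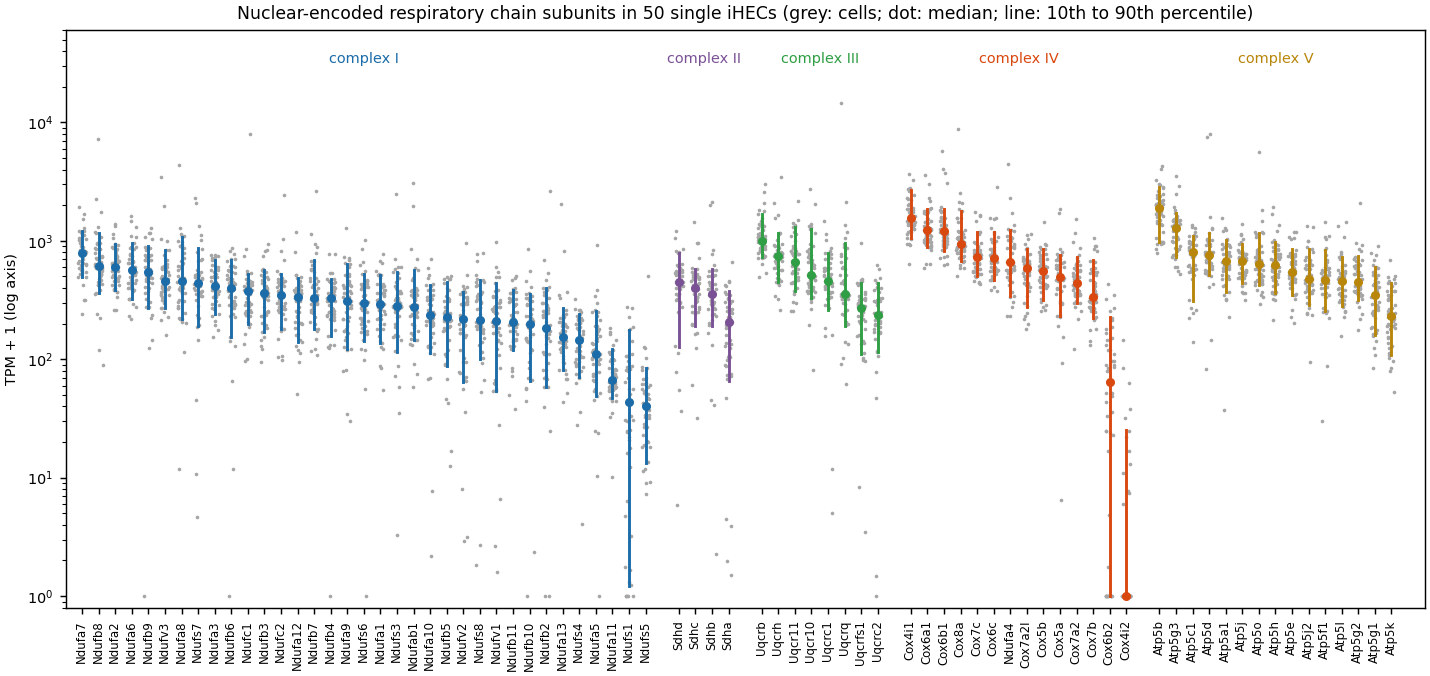
TPM + 1 on a log axis of the subunits, ordered by complex and by median, in 50 cells, without the gene whose values are not reported here. Grey points are cells, dots are medians, and lines run from the 10th to the 90th percentile. Most medians lie at 100 TPM or more, whereas Ndufs1, Cox6b2 and Cox4i2 were listed at 0 in 5, 11 and 37 cells, and the highest point belongs to Uqcrq in cell 4-6.

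Of the summed subunit TPM, complex I gave a median of 31.5%, complex V 26.95%, complex IV 25.9%, complex III 11.5% and complex II 3.78%. In TPM the medians of the sums were 12339 for complex I, 11100 for complex V, 10153 for complex IV, 4544 for complex III and 1595 for complex II. These sums follow the number of subunits. For a single subunit the order was different, since the median of the medians was 622 TPM in complexes IV and V, 485 TPM in complex III, 377 TPM in complex II and 303 TPM in complex I. Complex II had the widest range between cells, from 305 to 3330 TPM, which is 10.9-fold. Its sum is also over the fewest genes, 4, and the part of that number in the range was not tested. The range was 4.76-fold for complex I, 6.48-fold for complex III, 2.95-fold for complex IV and 3.63-fold for complex V. Without cell 4-6 it was 2.98-fold, 2.89-fold, 2.79-fold and 3.06-fold in the same order. Medians by first title number ranged from 36532 to 43575 TPM for all subunits together.

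Complex I takes electrons from NADH through a core of catalytic subunits, of which 7 are nuclear, surrounded by accessory subunits that stabilise it. The core genes had a median of medians of 218 TPM and the 29 accessory genes one of 326 TPM. Among core genes, Ndufs7 was the highest with a median of 436 TPM (3.64 to 2301). Ndufs3 had a median of 278 TPM. Ndufv2, Ndufs8 and Ndufv1 lay close together at 218, 212 and 211 TPM. Ndufs1, which encodes the largest subunit of the complex and binds iron-sulfur clusters, was the lowest core gene with a median of 42.6 TPM. It was above TPM 1 in 41 of 50 cells and listed at 0 in 5, and its highest value was 273 TPM. Among the accessory genes, Ndufa7 (793 TPM), Ndufb8 (618 TPM) and Ndufa2 (602 TPM) had the highest medians. The lowest were Ndufa5 (109 TPM), Ndufa11 (65.6 TPM) and Ndufs5 (39.2 TPM).

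The low value of Ndufs5 is uncertain. Its transcript has a near-identical copy, BC002163, which has a row of its own with a median of 42.8 TPM and was above TPM 1 in all 50 cells. How reads matching both were shared is not given in the sources used here, and the rho of the pair over the cells was 0.72. The only other subunit with such a copy among the rows was Cox7c (727 TPM), whose copy Gm10012 had a median of 17.5 TPM. In all, 22 of the 83 genes had a near-identical copy elsewhere in the annotation, defined as 200 or more matching bases at 95% identity or more. Exons of 30 genes overlapped those of another gene.

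Complex II, the succinate dehydrogenase shared with the citrate cycle, had all of its 4 subunits in the table. Sdhd, a membrane anchor, had a median of 452 TPM (4.85 to 1213). Sdhc, the other anchor, had 399 TPM (30.8 to 1433). The iron-sulfur subunit Sdhb had 356 TPM (1.29 to 2131). The flavoprotein Sdha was the lowest with 204 TPM (0.496 to 656), and it was under TPM 1 in 2 cells.

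In complex III the highest medians were those of Uqcrb with 993 TPM (495 to 2991), Uqcrh with 742 TPM and Uqcr11 with 658 TPM. The lowest were Uqcrq (356 TPM), the Rieske iron-sulfur protein gene Uqcrfs1 (270 TPM, 2.46 to 964) and the core protein gene Uqcrc2 (237 TPM, 0 to 627). Cyc1, the cytochrome c1 of this complex, falls outside the naming rule. Its median was 392 TPM.

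Complex IV, cytochrome c oxidase, was led by Cox4i1 with 1559 TPM (637 to 3678), Cox6a1 with 1230 TPM (590 to 3591) and Cox6b1 with 1213 TPM (628 to 5746). Cox8a, Cox7c and Cox6c followed at 939, 727 and 711 TPM. Leaving aside the isoforms Cox6b2 and Cox4i2, the lowest subunit was Cox7b with 335 TPM (131 to 1061). Ndufa4 had a median of 660 TPM.

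Complex V had the most abundant transcript of the whole chain, Atp5b, the catalytic beta subunit of F1, with 1895 TPM (791 to 4242). Its partner in the catalytic ring, Atp5a1, had 674 TPM (36.5 to 1545). The medians of these genes, whose proteins enter the complex in equal number, thus differed by 2.81-fold. The other F1 genes were Atp5c1 (802 TPM), Atp5d (752 TPM) and Atp5e (540 TPM). The 4 genes of the peripheral stalk, Atp5j, Atp5o, Atp5h and Atp5f1, lay between 469 and 668 TPM. The membrane genes Atp5j2, Atp5l and Atp5k had medians of 476, 458 and 229 TPM. All 15 genes of complex V were above TPM 1 in all 50 cells.

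The genes that are not subunits were lower. The complex I assembly factors Ndufaf2 (51.7 TPM), Ndufaf3 (46.5 TPM), Ndufaf1 (18.5 TPM) and Ndufaf4 (12.4 TPM) were above TPM 1 in 39, 37, 26 and 40 cells. The coupling factor-like genes Atp5sl (21.3 TPM) and Atp5s (16.7 TPM) were above TPM 1 in 28 and 31 cells. In the cells above TPM 1 the median of Ndufaf1 was 48.6 TPM and the lowest value 15.3 TPM, so values between 1 and 15.3 TPM did not occur.

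Several subunits have alternative genes, and the table holds more than 1 member for 4 such families. In the family of subunit 4, whose second isoform is known from lung and from cells at low oxygen, Cox4i1 was the higher gene in 50 of 50 cells and gave a median of 100% of the family TPM. On GRCm38, Cox4i1 spans chr8:120668222-120674207 and Cox4i2 chr2:152754173-152765037, both on the plus strand. Cox4i2 was above TPM 1 in 13 cells and listed at 0 in the other 37. In those 13 cells it ranged from 4.94 to 143 TPM with a median of 21.1 TPM, and its median share was 1.31%. The highest share was 7.59%, in cell 2-13, where Cox4i2 had 143 TPM and Cox4i1 1741 TPM. Cells with Cox4i2 were found under each first title number (3 of 11, 4 of 14, 3 of 13 and 3 of 12).

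Cox6b2, the isoform of subunit 6B described in testis, was more frequent. It was above TPM 1 in 38 cells, with a median of 91.8 TPM in those cells and a highest value of 433 TPM in cell 1-1. Its share of the family had a median of 5.25% and reached 22.03%, so Cox6b1 was the higher gene in all 50 cells. By first title number, 9 of 11, 8 of 14, 12 of 13 and 9 of 12 cells were above TPM 1. Cox6b2 had a rho of 0.45 over the 50 cells with the number of genes above TPM 1 in the cell, and the part of cell quality in its pattern was not tested.

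Cox7a2 and Cox7a2l were closer to each other. Cox7a2 encodes the widespread isoform of subunit 7A, and Cox7a2l a related protein that joins complexes III and IV, of which C57BL/6 mice carry a shortened form. Cox7a2l had a median of 584 TPM (177 to 1144) and Cox7a2 one of 442 TPM (121 to 1533). Cox7a2l was the higher gene in 31 cells and Cox7a2 in 19, and the median share of Cox7a2l was 56.3% (20.7% to 78.8%). By first title number that median share was 43.8%, 59.2%, 61.0% and 52.2%, so the order of the pair was not the same in every set of cells. Cox7a2l had 1 near-identical copy in the annotation and Cox7a2 had 0, and the part of copies in the shares was not tested.

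Subunit c forms the rotating ring of the ATP synthase, and its 3 genes encode the same mature protein behind different import signals. On GRCm38, Atp5g1 spans chr11:96068852-96075670, Atp5g2 chr15:102662864-102672352 and Atp5g3 chr2:73908447-73911326, all on the minus strand. Atp5g3 had a median of 1291 TPM (519 to 3536), Atp5g2 446 TPM (176 to 2071) and Atp5g1 348 TPM (83.2 to 896). Atp5g3 gave a median of 56.3% of the family (32.7% to 85.1%) and was the highest gene in 49 of 50 cells. The exception was cell 1-7, where Atp5g2 gave 63.0%. The median shares of Atp5g2 and Atp5g1 were 23.6% and 17.6%, and their ranges overlapped widely. In the annotation Atp5g3 had 0 near-identical copies, Atp5g2 had 2 and Atp5g1 had 1. Their median transcript lengths were 718.5, 586 and 2675.5 bases in the same order. The part of copies and of length in these shares was not tested. By first title number the share of Atp5g3 lay between 53.7% and 60.2%. In the upstream stretches shown above, neither Atp5g3 nor Atp5g1 held the letters searched, and the NRF1 letters of Atp5g2 lay in an exon and are not printed.

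**Figure D2:**
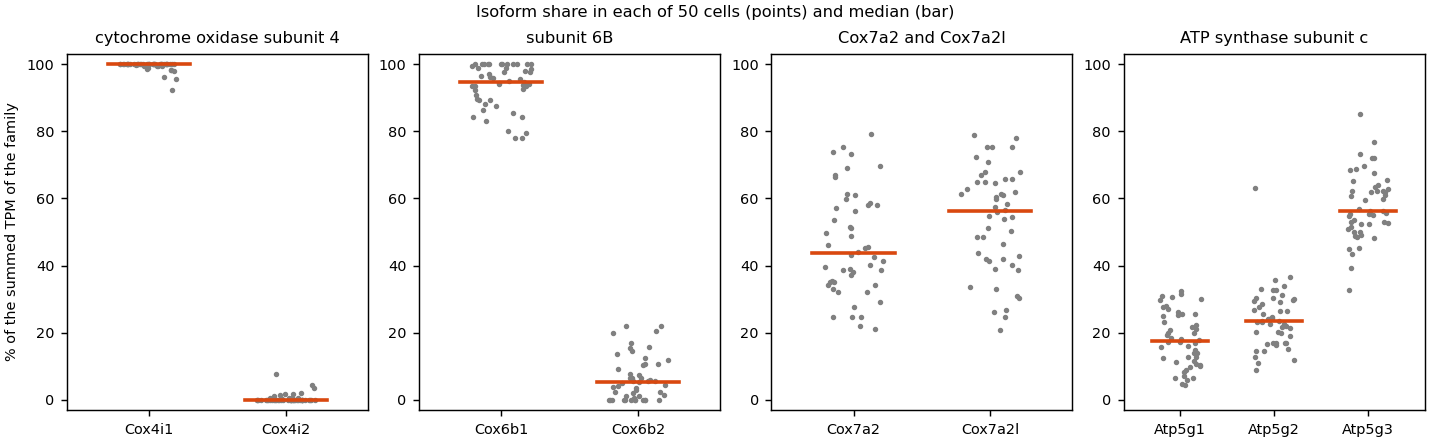
Share of each gene in the summed TPM of its family, in percent, for 50 cells (points) with the median (bar). Cox4i1 and Cox6b1 took nearly all of their families, Cox7a2 and Cox7a2l overlapped, and Atp5g3 lay highest in 49 of 50 cells.

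The chain varied less between cells than most genes did. Spread was taken as the SD of log2(TPM + 1) over the 50 cells. Its median was 0.87 over the 83 genes and 1.92 over all rows. Since spread depends on level, the rows with a median of 100 TPM or more were compared by level. Over that whole range the median SD was 0.81 for 72 genes of the chain and 1.52 for 1573 rows. Between 100 and 200 TPM the medians were 1.46 for 5 genes of the chain and 1.91 for 743 rows, and 5 of the 5 lay below the median of the rows. Between 200 and 400 TPM they were 1.09 for 28 genes and 1.4 for 453 rows, with 20 of the 28 below. Between 400 and 800 TPM they were 0.68 for 31 genes and 0.94 for 214 rows, with 23 of the 31 below. At 800 TPM or more they were 0.58 for 8 genes and 0.63 for 163 rows, with 5 of the 8 below. Within their own range of levels, 53 of the 72 genes thus lay below the median of the rows.

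The smallest spreads belonged to Atp5j (SD 0.45, 316 to 1376 TPM), Cox4i1 (0.50), Cox7c (0.51), Cox6a1 (0.52) and Cox5b (0.53). Without cell 4-6, Cox8a (0.51) and Uqcrb (0.52) were also among the lowest. The largest, among genes above TPM 1 in 20% of cells or more, belonged to Cox6b2 (3.00), Ndufaf1 (2.82), Atp5s (2.71), Ndufaf2 (2.71) and Ndufaf3 (2.69). Among genes of the chain with a median of 100 TPM or more, Sdha (1.9), Ndufb2 (1.88), Ndufv1 (1.79) and Uqcrc2 (1.67) had the largest SD. Without cell 4-6 the SD was 1.7 for Sdha, 1.87 for Ndufb2, 1.53 for Ndufv1 and 1.67 for Uqcrc2. By role, the median SD was 1.57 for the complex I core, 0.96 for its accessory genes, 1.35 for complex II with its anchors and 0.70 for the F1 genes of complex V.

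Transcript length moved with these values. Over the 72 subunits with a median of 100 TPM or more, the rho of transcript length with SD was 0.47 and with median TPM was -0.34. The 47 subunits under 1000 bases had a median SD of 0.73 and the 25 longer ones 1.03. The part of length in the spread was not tested.

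**Figure D3:**
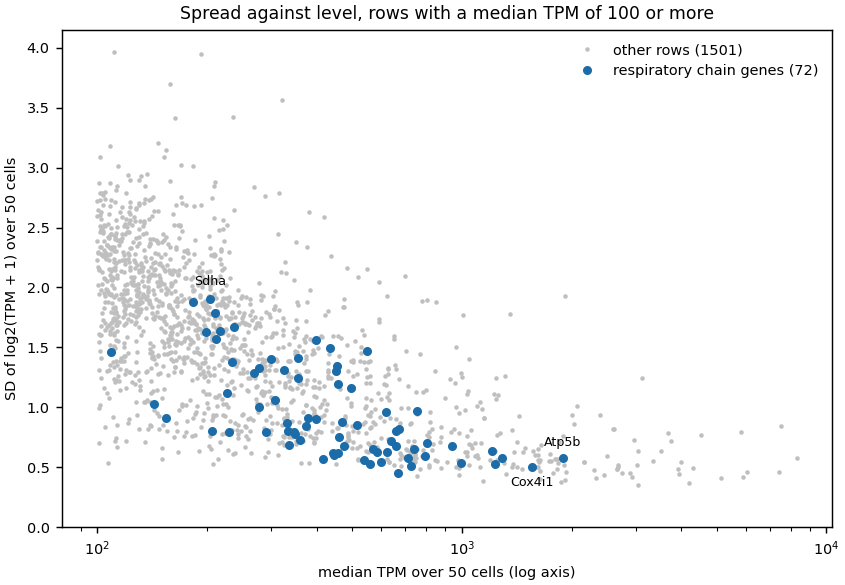
SD of log2(TPM + 1) over 50 cells against median TPM (log axis) for the 1573 rows with a median of 100 TPM or more. Blue points are the 72 genes of the chain, of which 53 lie below the median SD of the rows in their own range of levels, and Sdha is the highest of them at 1.9.

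Levels of the subunits were weakly correlated from cell to cell. Over 2926 pairs of subunits the median rho was 0.11, 70.7% of pairs were above 0, and 15.4% were above 0.3. For the 2556 pairs of subunits with a median of 100 TPM or more, the median was 0.12 and 16.7% were above 0.3. Over all 1236378 pairs of rows at that level, the median was 0.02 and 5.60% were above 0.3. All pairs share the same 50 libraries and a fixed total per cell. The median was 0.12 for pairs within complex I, 0.14 within complex IV and 0.10 within complex V. It was 0.14 for pairs between complexes I and IV and for those between IV and V. Within complex III the median was -0.02 over 28 pairs, and within complex II it was 0.08 over 6 pairs.

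The 5 closest pairs were Ndufb4 with Ndufs6 (rho 0.68), Atp5k with Ndufa4 (0.65), Cox6b1 with Cox7a2 (0.65), Ndufa3 with Ndufa4 (0.65) and Atp5l with Cox6c (0.64). Without cell 4-6 these 5 values lay between 0.62 and 0.68. The subunits closest to the summed TPM of all others were Atp5l (0.73), Cox7c (0.67), Cox7a2 (0.62) and Cox7b (0.59). Atp5l had 9 near-identical copies in the annotation, the most of any gene of the chain, Cox7c 1, Cox7a2 0 and Cox7b 2. The part of copies in these values was not tested. Against the mean log2 level of the others, Atp5h (0.70) and Ndufv2 (0.62) were highest, while Atp5l had 0.53, Cox7c 0.36, Cox7a2 0.51 and Cox7b 0.29. At the other end Cox7a2l had negative values with Ndufa4 (-0.50), Ndufa1 (-0.47) and Ndufa3 (-0.44). Its rho with the sum of the other subunits was -0.21, and it was the lowest of the 77. Atp5b had a rho of -0.52 with Uqcrb and of -0.20 with the sum of the others, and one of 0.05 with their mean log2 level.

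Among the rows outside the chain with a median of 100 TPM or more, those most like the mean log2 level of the 77 subunits over the 50 cells were Fkbp3 (rho 0.62), Rbm3 (0.61), Ran (0.57), Rpa3 (0.56), Nme2 (0.56), Ppia (0.56), Eif5a (0.55), Abcg2 (0.55), Gcsh (0.53) and Mrpl40 (0.53). Without cell 4-6 these values lay between 0.53 and 0.67. With the summed subunits in place of the mean log2 level they were lower, from 0.10 for Gcsh, 0.22 for Ran and 0.27 for Abcg2 to 0.56 for Fkbp3. Gcsh (0.50), Eif5a (0.45) and Ran (0.42) also had a positive rho with the number of genes above TPM 1 in the cell. With account taken of that number (partial rho), their values with the mean log2 level were 0.45, 0.48 and 0.50. The part of that number was not tested further. Within single first title numbers the value of Fkbp3 ranged from 0.16 to 0.79 and that of Mrpl40 from 0.07 to 0.91.

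The relation to Ldha, the lactate dehydrogenase subunit of glycolytic cells, was weak for the summed subunits. Ldha had a median of 3679 TPM, higher than any single subunit of the chain. The lowest cell, 2-12, had 178 TPM and the next lowest, 4-13, had 1498 TPM, while the highest, 3-9, had 7177 TPM. The summed subunits had a median of 11.1 times the Ldha value of the same cell. That ratio was 296 in cell 2-12 and at most 43.6 in the others.

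Over the 50 cells the rho of the summed subunits with Ldha was -0.10, and the Pearson r of the log2 values was -0.17. Without cells 2-12 and 3-9, which were farthest from the median of Ldha, rho was -0.03. Without cell 4-6 it was -0.16. With the mean log2 level of the subunits in place of their sum, which weighs every subunit alike, rho was 0.15, so the sign depended on the measure. By first title number rho was 0.29, -0.54, -0.09 and 0.02. For single complexes the values were -0.04 for complex I, 0.12 for complex II, -0.28 for complex III, -0.18 for complex IV and 0.09 for complex V. Without cell 4-6 complex III had -0.36, and by first title number it had 0.10, -0.20, -0.57 and -0.39. The Pearson r of the log2 values was 0.47 for complex II, or 0.15 without cells 2-12 and 3-9, and -0.16 for complex V, or 0.22 without those cells. The sign thus differed between measures, between sets of cells and between complexes.

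**Figure D4:**
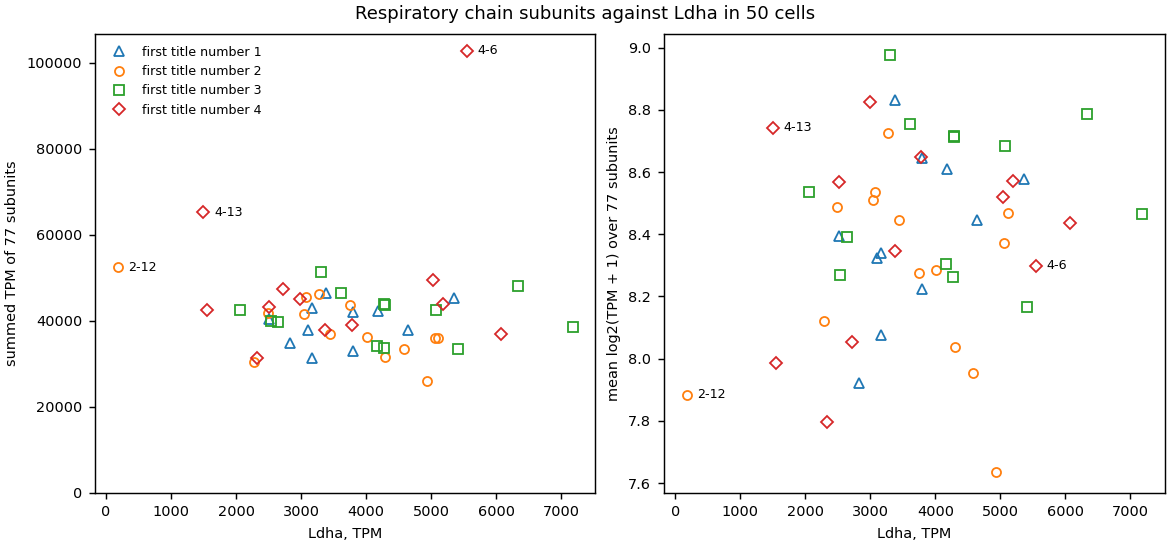
Summed TPM of the 77 subunits (left) and their mean log2(TPM + 1) (right) against Ldha in TPM, for 50 cells, with symbols for the first number of the title. Points spread without a clear slope (rho -0.10 on the left and 0.15 on the right), and cells 4-6, 4-13 and 2-12 lie apart on the left.

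The relation to Ldha was also taken for single genes. Of the 83 genes, 3 had a rho with Ldha above 0.3, where 3.76% of all other rows did, and 1 had a rho below -0.3, where 1.71% did. Without cell 4-6 these were 5 and 2 of the 83, against 6.04% and 1.51% of the rows. At a median of 100 TPM or more, 2.78% of the 72 subunits were above 0.3 and 1.39% below -0.3, against 6.74% and 2.8% of all rows at that level. The values of the 83 genes had a median of -0.01, with 39 above 0 and 44 below. Atp5a1, the alpha subunit of F1, had the highest rho at 0.49, and within the first title numbers it ranged from 0.29 to 0.61. Cox4i2 had 0.31, but it was listed at 0 in 37 cells. The lowest was Ndufs4, an accessory subunit of complex I, at -0.43. Among genes above TPM 1 in 80% of cells or more, Ndufa9 (0.25), Ndufb5 (0.25) and Sdhd (0.24) lay at the upper end below 0.3, and Ndufs8 (-0.28), Ndufs6 (-0.27), Ndufs1 (-0.26) and Cox7b (-0.24) at the lower end. Over the 72 subunits with a median of 100 TPM or more, the rho of transcript length with these values was 0.47. The median rho with Ldha was -0.06 for the 47 subunits under 1000 bases and 0.13 for the 25 longer ones. The part of length was not tested.

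The other genes of these pathways were described from 5 lists by their rho with the summed subunits over the 50 cells, where 9.06% of the rows outside the chain were below -0.3 and 1.87% above 0.3. Of the 20 glycolysis genes listed, 19 had a row, and 10 were above TPM 1 in all 50 cells. Their rho values had a median of -0.27, against -0.07 over all rows outside the chain. A total of 9 of the 19 were below -0.3 and none was above 0.3. At a median of 100 TPM or more, 6 of 12 listed genes were below -0.3, against 15.7% of the rows outside the chain. The 9 were the glucose transporters Slc2a1 (-0.53) and Slc2a3 (-0.49), the lactate exporter Slc16a3 (-0.51), the hexokinases Hk1 (-0.45) and Hk2 (-0.42), Gpi1 (-0.44), Aldoa (-0.37), Pgk1 (-0.34) and Pfkp (-0.33). Eno1 (-0.15), Pgam1 (-0.11), Pfkl (-0.01) and Ldha itself were nearer to 0. Without cell 4-6, 10 of the 19 were below -0.3, the tenth being Gapdh (-0.33). Of the 11281 rows outside the chain, 816 were then below -0.3 and 234 above 0.3.

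The values differed between sets of cells. By first title number the median rho of the glycolysis list was 0.01, -0.48, -0.14 and -0.41. With the mean log2 level of the subunits the median was -0.02, with 1 of 19 genes below -0.3. For counts with that measure, here and below, no share over all rows was taken. With account taken of the number of genes above TPM 1 in the cell (partial rho), the median with the summed subunits was -0.22. The sum of the subunits itself had a rho of -0.29 with that number of genes and of 0.39 with the sum of the cytosolic ribosomal protein rows, while its mean log2 level had one of 0.34 with the number of genes. The glycolysis list had a median rho of -0.25 with the ribosomal sum. The part of the number of genes and of the ribosomal share in these values was not tested.

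**Figure D5:**
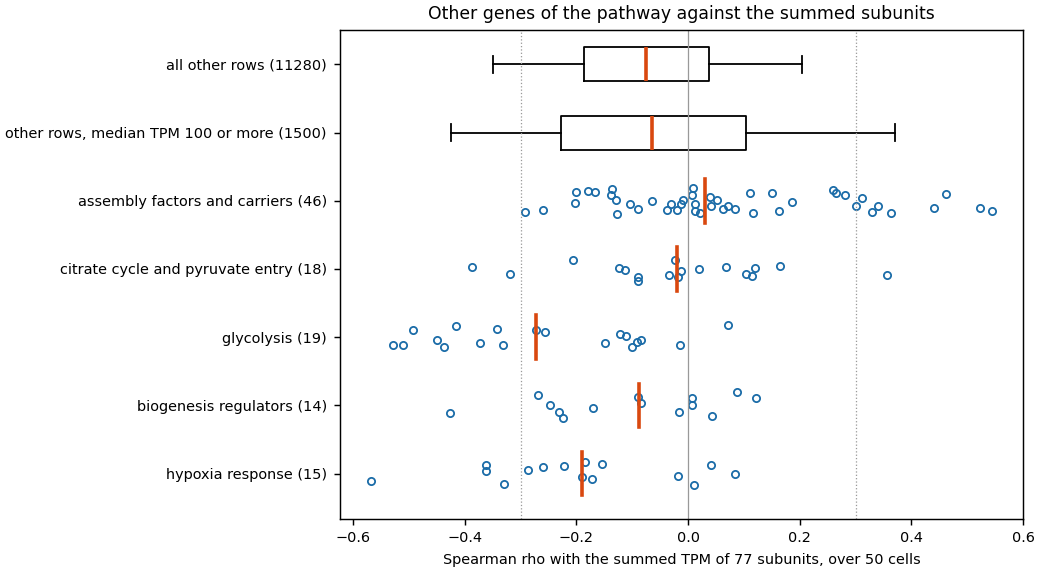
Spearman rho over 50 cells of each listed gene (circles) with the summed TPM of the 77 subunits, with list medians as orange bars. Boxes for the other rows, Ldha left out, span the quartiles with whiskers at the 5th and 95th percentile, and dotted lines mark -0.3 and 0.3. The glycolysis list has its median at -0.27 with 9 of 19 genes below -0.3, and the assembly factors and carriers reach up to 0.54.

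The 15 genes of the hypoxia list all had a row, with a median rho of -0.19, or -0.07 with the mean log2 level of the subunits. The values below -0.3 belonged to 4 genes, Bnip3 (-0.57, median 540 TPM), which encodes a receptor for the removal of mitochondria, Adm (-0.36), Ddit4 (-0.36) and Ndrg1 (-0.33). Without cell 4-6 there were 3, as Ndrg1 lay just inside the limit. Of these, Bnip3 was the only one above TPM 1 in all 50 cells, and it also had a rho of 0.45 with Ldha. By first title number its rho with Ldha was -0.30, 0.55, 0.72 and 0.56, and its rho with the summed subunits lay between -0.84 and -0.04.

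Assembly factors and carriers of the chain had 46 of 56 genes in the table, with a median of medians of 45.2 TPM, well under that of the subunits. Their rho values had a median of 0.03, with 9 of 46 above 0.3 and none below -0.3. At a median of 100 TPM or more, 7 of 14 were above 0.3, against 8.66% of the rows outside the chain. With the mean log2 level of the subunits the median over the 46 was 0.20. The 9 included Romo1 (0.54), a small inner membrane protein, Usmg5 (0.52), a small ATP synthase subunit under an older name, the copper chaperone Cox17 (0.46) and the ATP synthase inhibitor Atpif1 (0.44). The others were Etfb (0.36), Cox10 (0.34), the complex II assembly factor gene 1110058L19Rik (0.33), Nubpl (0.31) and the ADP/ATP carrier Slc25a5 (0.301). Without cell 4-6, 1110058L19Rik (0.29), Nubpl (0.27) and Slc25a5 (0.26) were under 0.3, Higd1a (0.32) and Acn9 (0.31) were above it, and the count was 8. Atpif1 and Slc25a5 were abundant, at 1104 and 931 TPM. Cytochrome c (Cycs) had a median of 105 TPM and a rho of 0.27.

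The citrate cycle, which feeds the chain, had 18 of 20 genes in the table, with a median rho of -0.02, or 0.26 with the mean log2 level of the subunits. Fh1, which encodes fumarase, was the gene above 0.3 (0.36), and citrate synthase Cs (-0.39) and the pyruvate dehydrogenase gene Pdha1 (-0.32) were below -0.3. At a median of 100 TPM or more, 1 of 12 listed genes was above 0.3 and 2 were below -0.3. Of the rows outside the chain at that level, 8.66% and 15.7% were, so the counts lay near the shares of the rows. Pdha1 had -0.28 without cell 4-6. With the mean log2 level Pdha1 had 0.13 and Cs -0.21, and none of the 18 genes was below -0.3. Regulators of mitochondrial biogenesis had 14 of 15 genes with a row and low levels, with a median of medians of 5.34 TPM. Nrf1 was above TPM 1 in 30 cells (median 21.1 TPM), Gabpa, an ETS factor, in 25 (1.3 TPM), Yy1 in 38 (21.03 TPM), Tfam in 39 (19.8 TPM) and Ppargc1b in 2. Their rho values with the chain were 0.01 for Nrf1, -0.02 for Gabpa, -0.25 for Yy1 and -0.22 for Tfam. The mitochondrial polymerase Polg (-0.43) was the one gene of this list below -0.3, and the median of the list was -0.09. With the mean log2 level of the subunits that median was 0.03, Polg had -0.17, Yy1 -0.35 and Tfam 0.12, so Yy1 was then the one gene below -0.3.

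The sum of the mitochondrial ribosomal protein rows had a rho of 0.67 with the summed subunits (0.65 without cell 4-6). Its rho with Ldha was -0.09.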

How the data were processed

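Amplified cDNA (Discover-sc WTA Kit V2) of 50 single sorted iHECs was made into libraries with the TruePrep V2 kit. No molecular identifiers are named. Per the labels and the study's methods, the authors used bcl2fastq, HISAT2 2.1.0, SAMtools 0.1.19 and StringTie 1.3.4 on mm10 and deposited 1 table of TPM values, 11879 genes by 50 cells. How the rows were selected is not stated. TPM is scaled to transcript length and to a fixed total per cell, so depth is unknown, no interval for reads can be given, and 1 abundant gene lowers the others. Columns summed to between 942975 and 970894 TPM and no columns were identical.

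Values were used as deposited. A gene was counted as expressed above TPM 1, SDs were taken on log2(TPM + 1), and relations were Spearman rho over cells, with calls at 0.3. The labels name 1 group and no animal or culture, so no tests and no p-values are given, and cells were neither clustered, removed nor screened for doublets. Rank correlations were checked on simulated data. The members, the gene lists (glycolysis, hypoxia, citrate cycle, assembly factors and carriers, biogenesis regulators) and the rules were chosen with earlier results of these data known. Genes were named by rule. Named were all members of the 4 isoform families, the 3 highest and 3 lowest subunits of each complex, the 7 nuclear core subunits of complex I, the 5 largest and 5 smallest SDs, the 5 highest and 5 lowest rho with Ldha, the members that are not subunits, the 10 rows most like the mean log2 level of the subunits, and genes of the lists. The values of 1 gene that these rules name are not reported here, but it is included in the counts, sums and medians. Further names, such as the subunits closest to the sum of the others and those high or low in cell 4-6, were chosen after their values were seen.

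Coordinates and transcript lengths came from GENCODE M21 (GRCm38, the assembly of mm10), where all 83 genes were found, 1 of them under a newer symbol. Near-identical copies were sought with blastn 2.17.0, and upstream sequence came from RefSeq (GRCm38.p6), searched on both strands. Analyses used Python 3.11.15, numpy 2.4.6, pandas 2.3.3, scipy 1.17.1 and matplotlib 3.10.9. Alternatives were other levels and pseudocounts, cells left out, 2 rescalings and other measures of the chain.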

Additional observations from a re-analysis of the deposited data

How the results depend on the processing

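These values describe 50 cells of 1 sample, with no replicate and no known depth. TPM is relative within a cell, mitochondrially encoded genes had no row. Near-identical copies and overlapping exons touch 22 and 30 of the 83 genes. With a single group of cells, no paired fit exists. An alternative was taken as unchanged where it moved a value by no more than the SD of the 4 first title numbers, or a count by no more than 1.5 times. For the rho with Ldha that SD was 0.35, so even a change of sign counted as unchanged.

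Rescaling without the 81 cytosolic ribosomal protein rows raised the median share of the subunits from 4.36% to 4.90% of the table and the complex sums to 14507 (I), 1804 (II), 5125 (III), 11632 (IV) and 12709 (V) TPM, as fewer rows share the total. The number of genes with a rho past 0.3 or -0.3 with Ldha was 4 with all cells, 7 without cell 4-6, 8 without the 7 cells under 5000 genes above TPM 1, and 7 to 13 with the cells of 1 first title number left out. Of all rows but Ldha, 3.76% were above 0.3 and 1.71% below -0.3 with all cells. Without cell 4-6 these shares were 6.04% and 1.51%. For the other settings no share over all rows was taken, so these counts cannot be read as a change in the chain. The cause of the shifts was not tested. The rho of the summed subunits with Ldha lay between -0.18 and 0.15 over its 14 alternatives, and with the cells of 1 first title number left out between -0.16 and 0.05. The number of genes above the level in 45 or more cells lay between 74 and 75 over 10 alternatives, and the median SD between 0.75 and 0.95 over 11. The 7 shares of the Cox6b, Cox7a and Atp5g families moved by no more than the SD of the first title numbers under the 6 alternatives run for each. The medians of Cox4i1 and Cox4i2 stayed at 100% and 0% in every setting and so say nothing of stability.

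The alternatives for the median rho between pairs of subunits (0.09 to 0.13) and for the glycolysis list were chosen after seeing the data. The median rho of that list was -0.27 with all cells, -0.30 without cell 4-6, -0.22 with median-of-ratios factors over 1273 rows, and -0.35 to -0.23 with the cells of 1 first title number left out. It was -0.0203 with the mean log2 level of the subunits.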
